A study of Mus musculus with 20 samples.

Results

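The 10 genes of cytosolic bacterial sensing described here are the NOD receptors Nod1 and Nod2, the inflammasome sensors Nlrp6, Nlrc4, Naip2 and Naip5, the adaptor Pycard, the caspases Casp1 and Casp4, and the cytokine Il18. Each was read from the array probes that carry its name, or whose RefSeq accession belongs to it, with the older Birc1 names taken as Naip genes. All 10 of the 10 genes passed the filter on dim probes, among 21600 features tested, 1 per gene symbol. Nlrp6 and Pycard had 2 probes each and the other genes 1.

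NOD1 and NOD2 are receptors inside the cell for fragments of bacterial peptidoglycan, and they signal through the kinase RIPK2 to NF-kappaB. NAIP proteins bind bacterial flagellin or secretion system proteins and then join NLRC4, while NLRP6 is a sensor studied mainly in the gut epithelium. Inflammasome sensors recruit caspase-1, many of them through the adaptor ASC, the product of Pycard, and caspase-1 releases active IL-18 and cleaves gasdermin D. The product of mouse Casp4, also called caspase-11, responds to lipopolysaccharide in the cytosol.

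The study measured RNA of intestinal epithelial cells from 28-day-old mice of strain C57BBL6 that were healthy and untreated, with 4 animals in each of 5 genotypes. Besides wild type, these were mice with the LPS/LPS genotype of Trif (labelled Trif mut), and mice labelled Tlr3 KO, Tlr4 KO and MyD88 KO. Toll-like receptors 3 and 4 sense double-stranded RNA and lipopolysaccharide, TRIF is the adaptor of the former and of one branch of the latter, and MyD88 serves most other Toll-like receptors and the receptors for IL-1 and IL-18. The cells were released with EDTA and settled apart from immune cells, and the labels put CD45-positive cells below 5%, without naming a gut region or the animals' sex. The labels name no driver that would limit a deletion to one cell type, and in such bulk RNA fewer cells of a type and less RNA per cell cannot be told apart.

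Signals are log2 values relative to the 75th percentile of the same array, so 0 marks that percentile. The arrays of wild type, Trif mutants, Tlr3 and Tlr4 knockouts were scanned together on 4 slides with 1 animal of each genotype per slide, and 64.8% to 73.4% of their probes were detected above background. The 4 MyD88 arrays lay on other slides and were scanned in another session, with 70.9% to 85.5% of probes detected. Eif2s3y, a gene of the Y chromosome, was well above background on 0 wild type, 3 Trif mutant, 1 Tlr3, 0 Tlr4 and 4 MyD88 arrays, so wild type and Trif mutant animals with the same sex-linked signal met only on the slide of replicate 4. For MyD88 knockouts, genotype, scan session and sex cannot be told apart. Some fits below use the sex-linked Xist signal as a covariate, whose slope comes from differences within genotypes. Chief among these were Trif replicate 4 (Xist 2.32, others -8.02 to -7.36) and Tlr3 replicate 3 (-8.13, others 2.31 to 2.80). MyD88 changes fitted with that covariate are therefore not separated from sex. The median change of all features against wild type was 0.19 in Trif mutants, 0.22 in Tlr3, 0.01 in Tlr4 and 0.31 in MyD88 knockouts, and small changes are read against these shifts.

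Epithelial markers were well above background on all 4 arrays of every genotype (10 of 10 genes). Dividing-cell markers were lower in Trif mutants and Tlr3 knockouts for 10 of 10 genes, and their summed signal, in multiples of the 75th percentile, was 85.0 to 102 on wild type arrays, 21.8 to 50.5 in Trif mutants and 36.7 to 58.9 in Tlr3 knockouts. Paneth cell markers were lower for 3 of 7 genes in Trif mutants and 6 of 7 in Tlr3 knockouts, and higher for 6 of 7 in MyD88 knockouts. The macrophage and dendritic cell list summed to 39.5 to 78.2 in wild type and 96.6 to 205 in MyD88 knockouts, where 7 of 14 genes were higher and 1 lower. The leukocyte list summed to 3.92 to 6.59 in wild type and 4.13 to 6.59 in MyD88 knockouts, where 0 of 8 genes were higher and 1 lower. Beside these marker counts, 15.8% of all features were lower in Trif mutants and 13.8% in Tlr3 knockouts. In MyD88 knockouts 37.1% of all features were higher and 12.3% lower. Of 6 neutrophil genes with a probe, 1 was well above background on all 4 arrays in wild type, Trif mutants and Tlr4 knockouts. In Tlr3 and MyD88 knockouts 2 were, while S100a8 and Csf3r were so on 0 of 20 arrays.

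Trif mutants differed from wild type in more of the 10 genes than any other genotype did: 4 were higher and 5 lower (limma, adjusted p under 0.05 over all features), where 28.6% of all features were higher and 15.8% lower. The genes that fell were Nod1, Nod2, Naip5 (on 2 of its 4 arrays), Casp4 and Pycard, and those that rose were Naip2, Nlrc4, Nlrp6 and Casp1. In Tlr3 knockouts 3 genes were higher and 2 lower (background 24.5% and 13.8%), and in Tlr4 knockouts 3 were higher and 0 lower (background 9.27% and 3.11%). In MyD88 knockouts 2 were higher and 2 lower, against 37.1% and 12.3% of all features. The median change of the 10 genes was -0.53, 0.23, 0.26 and 0.15 in Trif, Tlr3, Tlr4 and MyD88 mutants, beside 0.19, 0.22, 0.01 and 0.31 for all features.

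Part of these calls depended on how the arrays were scaled. After quantile normalization the counts of higher and lower genes were 2 and 6 in Trif mutants, 0 and 2 in Tlr3, 1 and 0 in Tlr4 and 1 and 2 in MyD88 knockouts. With each array scaled to its median they were 1 and 5, 1 and 2, 1 and 0, and 1 and 4. After normexp background correction they were 1 and 5, 0 and 2, 0 and 0, and 0 and 2. Of all 21600 features, quantile normalization called 8612, 7291, 2468 and 8176 in either direction in these 4 genotypes. Median scaling called 7888, 6855, 2591 and 9497, and normexp 6719, 3255, 587 and 3218. The main run called 9574, 8287, 2673 and 10677.

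**Figure D1:**
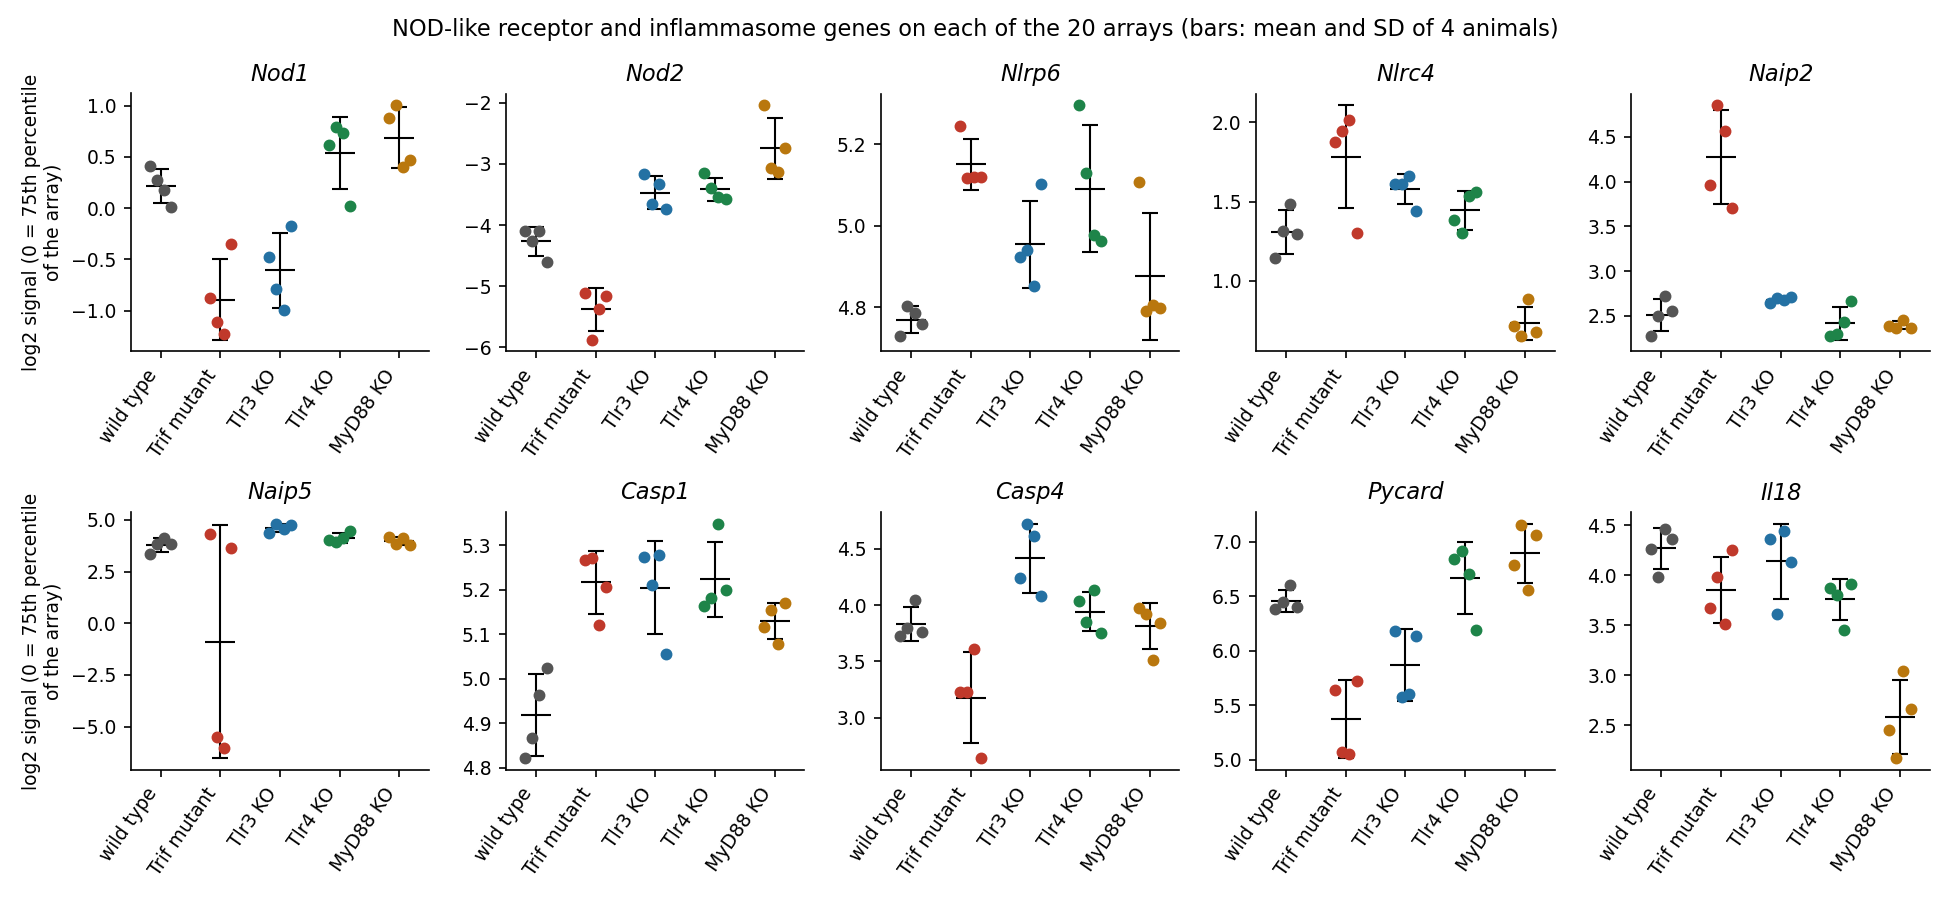
Log2 signal of the 10 genes on each of the 20 arrays, relative to the 75th percentile of the array (vertical axis, own range per gene), by genotype (horizontal axis). Points are animals in order of replicate number, and bars give the mean and SD of 4 animals. Nod1 and Pycard are lowest in Trif mutants and Tlr3 knockouts, Nod2 is lowest in Trif mutants, Il18 is lowest in MyD88 knockouts, and Naip5 splits in Trif mutants.

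**Figure D2:**
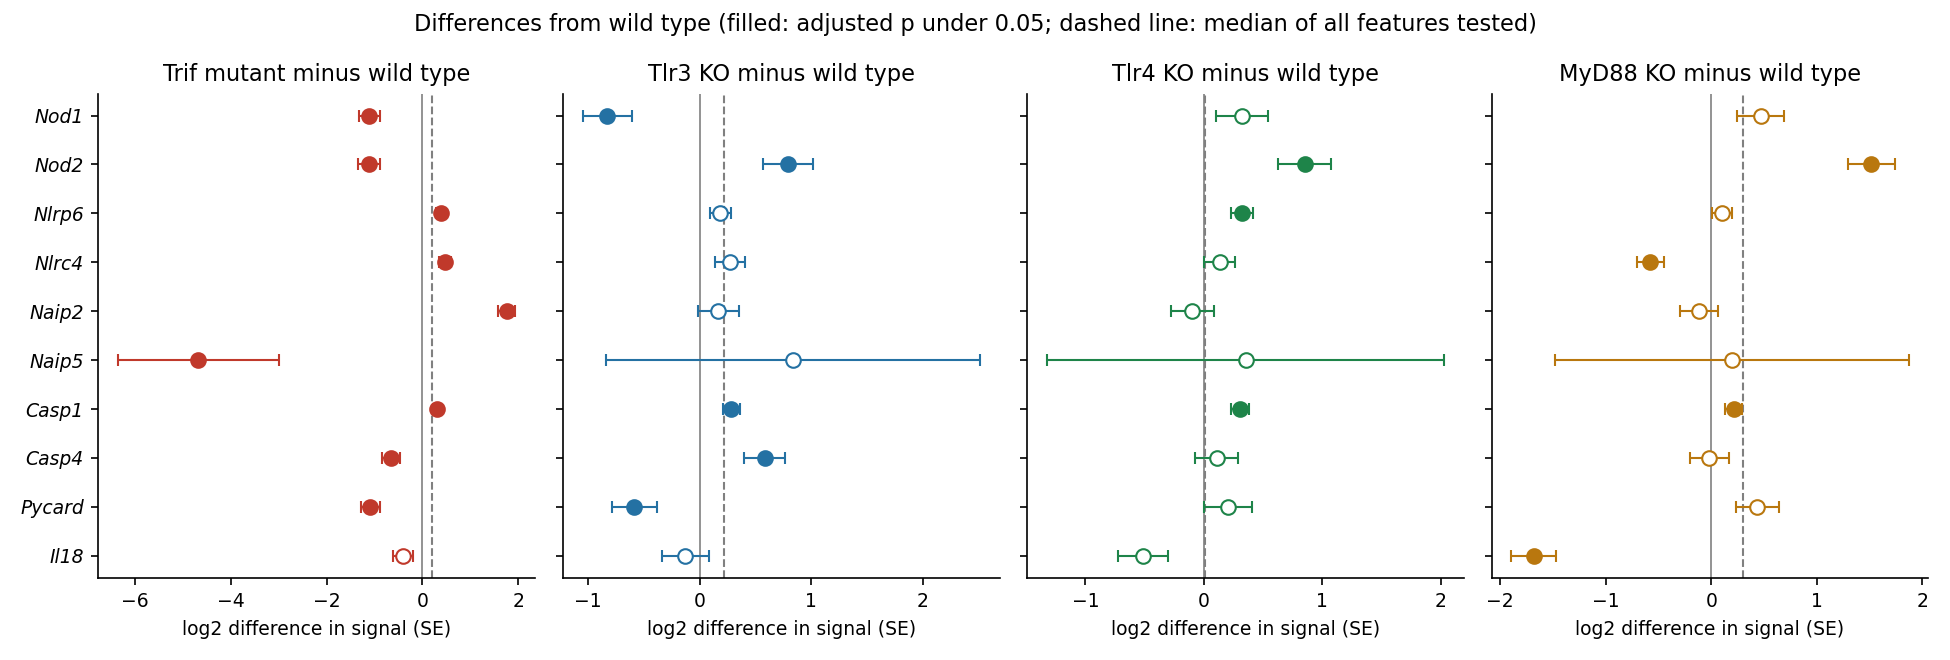
Difference in mean log2 signal from wild type (horizontal axis, with its standard error) for each gene and mutant. Filled points passed an adjusted p under 0.05 and the dashed line is the median of all 21600 features. The changes of Casp1 lie close to that line in Trif, Tlr3 and MyD88 mutants. More than 1 log2 unit away from it lie Nod1, Nod2, Naip2, Naip5 and Pycard in Trif mutants, Nod1 in Tlr3 knockouts, and Nod2 and Il18 in MyD88 knockouts.

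Nod1, the receptor for peptidoglycan fragments that carry diaminopimelic acid, fell in Trif mutants and in Tlr3 knockouts. Its signal (probe at chr6:54874007-54874066 of mm9, minus strand) was 0.41, 0.27, 0.18 and 0.01 on the 4 wild type arrays, -0.88, -1.11, -1.23 and -0.35 in Trif mutants, and -0.47, -0.79, -0.998 and -0.17 in Tlr3 knockouts. It was 0.62, 0.79, 0.73 and 0.02 in Tlr4 knockouts and 0.88, 1.00, 0.40 and 0.46 in MyD88 knockouts. Every Trif and Tlr3 array lay below every wild type array, with replicate 4 the highest in both mutants, while the Tlr4 and MyD88 groups overlapped wild type.

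The change of Nod1 was -1.11 ± 0.22 (SE) in Trif mutants, 2.16-fold lower (adjusted p = 0.000671), and -0.83 ± 0.22 in Tlr3 knockouts (adjusted p = 0.00775). Neither call was lost under any alternative run or with any 1 array left out, although with Xist signal as a covariate the Trif change shrank to -0.67 (adjusted p = 0.0422). Nod1 did not pass in Tlr4 (0.32 ± 0.22, adjusted p = 0.434) or MyD88 knockouts (0.47 ± 0.22, adjusted p = 0.0881), although it passed in the latter with Xist signal as a covariate (1.06, adjusted p = 0.0076). From low to high the genotypes were ordered Trif, Tlr3, wild type, Tlr4 and MyD88, and the neighbours Trif and Tlr3 (adjusted p = 0.404) and Tlr4 and MyD88 (adjusted p = 0.596) did not differ beyond their spread, although with Xist as a covariate the latter pair did (-0.78, adjusted p = 0.0398). On the slide of replicate 4 the Trif difference was -0.36, and on the other slides -1.41 to -1.29.

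Nod2, the receptor for muramyl dipeptide, which in the small intestine is known from Paneth cells and crypts, was lower in Trif mutants and higher in the other mutants. After normexp background correction its Trif change turned positive (0.42), beside a median of 0.51 for all features. Its probe (chr8:91212170-91212224) was dim, above background on 19 of 20 arrays, with signals of -4.09, -4.26, -4.10 and -4.61 in wild type and -5.12, -5.88, -5.37 and -5.16 in Trif mutants. It read -3.17, -3.66, -3.33 and -3.74 in Tlr3 knockouts, -3.16, -3.39, -3.53 and -3.58 in Tlr4 knockouts, and -2.04, -3.08, -3.13 and -2.75 in MyD88 knockouts. All Trif arrays lay below all wild type arrays, and all arrays of the 3 knockouts above them.

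Nod2 was 2.17-fold lower in Trif mutants (-1.12 ± 0.22, adjusted p = 0.000679) and 2.86-fold higher in MyD88 knockouts (1.52 ± 0.22, adjusted p = 8.71e-05). It was also higher in Tlr3 (0.79 ± 0.22, adjusted p = 0.0104) and Tlr4 knockouts (0.85 ± 0.22, adjusted p = 0.0169). Between mutants the Trif level was below those of Tlr3 (-1.91 ± 0.22), Tlr4 (-1.97 ± 0.22) and MyD88 knockouts (-2.63 ± 0.22), with adjusted p of 2.71e-05, 6.21e-06 and 1.95e-07. The Tlr3 and Tlr4 levels did not differ beyond their spread (-0.06 ± 0.22, adjusted p = 0.852). Within the 4 shared slides Nod2 was lower in the Trif mutant on each (-1.62 to -0.56), and higher on each in Tlr3 (0.60 to 0.92) and Tlr4 knockouts (0.57 to 1.03).

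At this low signal the background correction mattered. With normexp the change of Nod2 in Trif mutants turned to 0.42 (adjusted p = 0.35), and those in Tlr3, Tlr4 and MyD88 knockouts were 0.50, 0.44 and 0.84, none of which passed. The median changes of all features with normexp were 0.51, 0.22, 0.03 and 0.17 in Trif, Tlr3, Tlr4 and MyD88 mutants. The Trif value of Nod2 thus lay below the general shift of that run. The differences of Trif mutants from Tlr3, Tlr4 and MyD88 knockouts were also lost with normexp, at -0.08 (adjusted p = 0.881), -0.03 (adjusted p = 0.955) and -0.42 (adjusted p = 0.366). After quantile normalization the Tlr3 (0.54, adjusted p = 0.0771) and Tlr4 changes (0.67, adjusted p = 0.065) did not pass either. The Tlr4 call was also lost without Tlr4 replicate 1 (0.76, adjusted p = 0.0612) or wild type replicate 4 (0.74, adjusted p = 0.0664). Nod2 and the Paneth cell list were both highest in MyD88 knockouts (summed Paneth signal 309 to 713, against 160 to 217 in wild type), but in Tlr3 knockouts, where Nod2 was raised, that list was at its lowest (43.0 to 108). The part of cell composition in these levels was not tested.

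The start regions of the genes give the sequence context of Nod1 and of Pycard, the adaptor gene that moved with it. The 180 bases before each annotated start are shown, taken from RefSeq with the build GRCm38.p6, for the Nod1 starts (chr6:54972613-54972792 and chr6:54971662-54971841, minus strand) and for Pycard (chr7:127993868-127994047, minus strand).
Nod1 start 1: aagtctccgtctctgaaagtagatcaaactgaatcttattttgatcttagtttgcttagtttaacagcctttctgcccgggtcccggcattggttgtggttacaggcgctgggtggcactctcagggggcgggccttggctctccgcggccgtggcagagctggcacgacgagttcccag
Nod1 start 2: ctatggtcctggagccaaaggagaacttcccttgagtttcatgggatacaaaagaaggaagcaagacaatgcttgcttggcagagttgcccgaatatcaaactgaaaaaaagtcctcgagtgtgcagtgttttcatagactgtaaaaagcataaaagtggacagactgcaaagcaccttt
Pycard start: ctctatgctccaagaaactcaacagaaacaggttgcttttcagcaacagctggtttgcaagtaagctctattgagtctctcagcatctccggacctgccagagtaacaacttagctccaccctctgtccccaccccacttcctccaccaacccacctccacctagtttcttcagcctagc
The first Nod1 window holds 10 CG pairs and 55.6% G and C, the second 2 CG pairs and 42.8%, and the Pycard window 1 CG pair and 51.1%. On both strands of 300-base windows around each start 5 motifs were searched: the interferon-stimulated response element core, the gamma-activated site TTCNNNGAA, kappa-B, TATAAA and the E2F form TTTNNCGC, which occur in 3.44%, 8.30%, 4.51%, 13.6% and 5.17% of 32851 promoters. Of these, the second Nod1 window held a gamma-activated site match at base -193 and the Pycard window none.

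Pycard, which encodes ASC, the adaptor that links many sensors to caspase-1, followed Nod1 in direction. It was read by a pair of probes (chr7:135136221-135136280 and chr7:135136241-135136300 of mm9, minus strand) that share 40 bases, shown in capitals because the pair is then no independent repeat.
Pycard probe upstream: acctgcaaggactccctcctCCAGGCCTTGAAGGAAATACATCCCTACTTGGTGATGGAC
Pycard probe downstream: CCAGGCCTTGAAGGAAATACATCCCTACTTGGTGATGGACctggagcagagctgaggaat
On the brighter probe the signals were 6.38, 6.44, 6.60 and 6.40 in wild type, 5.64, 5.07, 5.05 and 5.72 in Trif mutants and 6.18, 5.57, 5.60 and 6.13 in Tlr3 knockouts. Tlr4 knockouts had 6.84, 6.91, 6.71 and 6.19, and MyD88 knockouts 6.79, 7.16, 6.56 and 7.06. All Trif and Tlr3 arrays lay below all wild type arrays, and the Tlr4 and MyD88 groups overlapped wild type.

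Pycard fell by 1.08 ± 0.20 on the log2 scale in Trif mutants, 2.12-fold (adjusted p = 0.000368), and by 0.58 ± 0.20 in Tlr3 knockouts (adjusted p = 0.03). The second probe gave -1.21 and -0.64, both passing, and after quantile normalization the Tlr3 change was -0.90. In Tlr4 and MyD88 knockouts the changes were 0.21 ± 0.20 (adjusted p = 0.613) and 0.44 ± 0.20 (adjusted p = 0.0818). The MyD88 change passed with Xist as a covariate (0.82, adjusted p = 0.029), with the 2 genotypes alone (adjusted p = 0.0433) and without MyD88 replicate 3 (0.55, adjusted p = 0.044). Pycard was 2.87-fold lower in Trif mutants than in MyD88 knockouts (adjusted p = 7.49e-06). The Tlr3 call was lost with Xist as a covariate (-0.50, adjusted p = 0.054) and without wild type replicate 1, 2 or 3 or Tlr3 replicate 2 or 3 (-0.61 to -0.49, adjusted p 0.0508 to 0.0989). On the slide of replicate 4, where sex-linked signal was alike, the Trif difference was -0.68. Nod1 and Pycard were low in the 2 genotypes whose dividing-cell and crypt stem cell markers were low, with stem cell sums of 4.01 to 8.54 in Trif mutants and 5.33 to 9.13 in Tlr3 knockouts against 11.9 to 16.5 in wild type. The part of those cells in the level of either gene was not tested.

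Naip2, a sensor of rod proteins of bacterial secretion systems, rose in Trif mutants, and none of the other mutants differed from wild type in it beyond the spread. It read 2.28, 2.50, 2.72 and 2.55 in wild type and 3.97, 4.85, 4.56 and 3.71 in Trif mutants (probe at chr13:100914253-100914312, minus strand). The range over all arrays of the other 3 mutants was 2.27 to 2.71, within the wild type range but for the lowest array. All 4 Trif arrays lay above every other array of the study.

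The rise of Naip2 was 1.76 ± 0.18, or 3.38-fold (adjusted p = 3.82e-06), and it passed under every alternative run and with any 1 array left out. On the slide of replicate 4 it was 1.16, and on the others 1.68 to 2.35. Naip2 was also higher in Trif mutants than in Tlr3 (1.59 ± 0.18, adjusted p = 2.19e-05), Tlr4 (1.85 ± 0.18, adjusted p = 1.71e-06) and MyD88 knockouts (1.88 ± 0.18, adjusted p = 5.42e-07). Absorptive cell markers were raised in the same mutants (8 of 10 genes, median 0.60, where 28.6% of all features were higher). They were also raised in Tlr3 knockouts (7 of 10 genes, median 0.56, where 24.5% of all features were higher). Naip2 changed there by 0.17 ± 0.18 (adjusted p = 0.481), and the part of absorptive cells in the Naip2 level was not tested. With median scaling Naip2 was lower in MyD88 knockouts (-0.53, adjusted p = 0.027), against -0.12 (adjusted p = 0.612) otherwise.

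Naip5, a sensor of flagellin, showed the widest spread of any of these genes. Its only probe (chr13:100981928-100981987, minus strand) read 3.35, 3.83, 4.14 and 3.85 in wild type and 4.33, -5.50, -6.02 and 3.65 in Trif mutants. In Tlr3 knockouts it read 4.39, 4.79, 4.56 and 4.78, in Tlr4 knockouts 4.02, 3.94, 4.13 and 4.48, and in MyD88 knockouts 4.19, 3.85, 4.11 and 3.80. Trif replicates 1 and 4 thus lay within or above the wild type range, and replicates 2 and 3 lay far below every other array of the study.

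The raw spot brightness of Naip5 in Trif replicates 2 and 3 was 51.4 and 46.2 over a local background of 22.5 on both, against 14154 and 9122 in replicates 1 and 4 and 9509 to 13728 in wild type. The spot was still well above background in replicate 2 and not in replicate 3. A range of 10.3 over the 4 Trif arrays was reached or passed by 2 of the 31576 probes kept, whose median range was 0.60. The other was Eif2s3y, and next came Xist, both sex-linked, whose odd array was replicate 4. Naip5 did not follow that pattern, since Trif replicates 1, 2 and 3 shared high Eif2s3y (2.64, 2.66 and 2.73) and low Xist signal.

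The mean change of Naip5 in Trif mutants, -4.68 ± 1.68 (adjusted p = 0.031), therefore averaged 2 unlike pairs of values. It was -3.14 (adjusted p = 0.127) without replicate 2 and -2.97 (adjusted p = 0.128) without replicate 3. It also missed the threshold without any 1 wild type array (adjusted p 0.052 to 0.0585), with the slide as a block (adjusted p = 0.053), with Xist as a covariate (-2.61, adjusted p = 0.37) and when only the 2 genotypes were fitted (adjusted p = 0.16). The same spread sets the error for the other genotypes, where Naip5 changed by 0.84, 0.35 and 0.20 (each ± 1.68). Fitted with wild type alone, the Tlr3 rise of 0.84 had an adjusted p of 0.0083, and its 4 arrays lay above all wild type arrays.

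Naip2 and Naip5 are neighbours in a cluster of closely related genes on chromosome 13, so the other probes of that stretch were read too. Naip6 rose in Trif mutants (0.89 ± 0.22, adjusted p = 0.00344) and Tlr3 knockouts (0.65 ± 0.22, adjusted p = 0.0287), and Naip1 did not pass in Trif mutants (0.33 ± 0.17, adjusted p = 0.131). Over the 4 Trif arrays the 12 other probes in a window that reaches 100 kb beyond the Naip probes on either side, chosen after values were seen, ranged by at most 1.24, so none of them shared the drop of Naip5 in replicates 2 and 3. Mean signals outside the Naip family shifted too from wild type to Trif mutants. Serf1 went from 2.55 to 3.42, BC001981 from -4.33 to -3.52 and NAP108475-1 from -4.30 to -3.39. Smn1 went down, from -1.88 to -2.88. The Gtf2h2 probes went from -0.17 to 0.22 and from -0.17 to -0.94. Bdp1 (-0.74 to -0.59) and Ocln (1.78 to 1.95) moved less. The cause of these shifts was not tested. Probes of different Naip genes matched each other at no more than 24 of 60 bases without gaps. Whether transcripts of one Naip gene bound the probe of another was not tested.

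**Figure D3:**
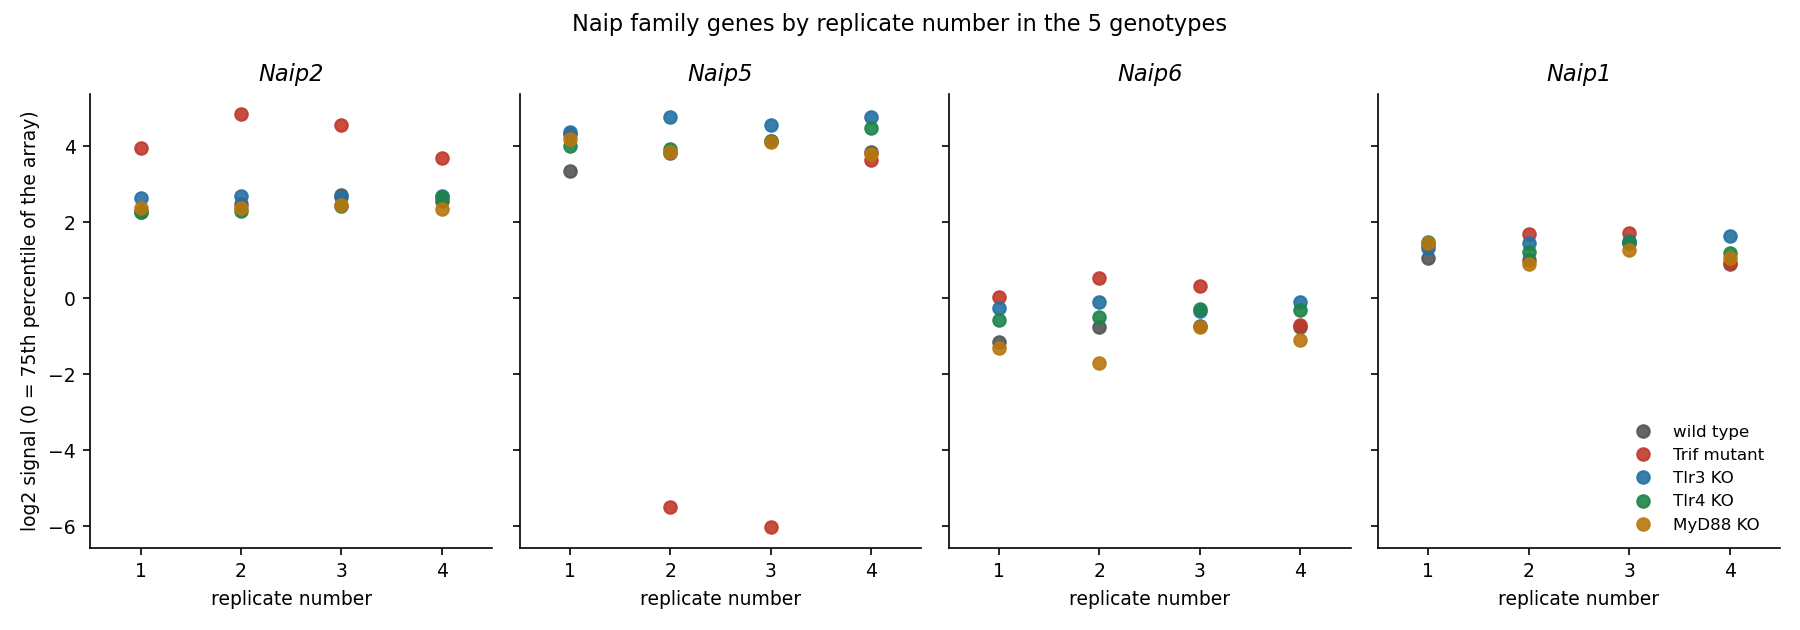
Log2 signal of 4 Naip genes (vertical axis, relative to the 75th percentile of the array) against replicate number (horizontal axis), with genotypes in colour. Naip2 is higher in all 4 Trif mutants, whereas Naip5 is low in Trif replicates 2 and 3 only (-5.50 and -6.02).

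The windows before the starts of Naip2 (chr13:100202123-100202302) and Naip5 (chr13:100247337-100247516), both on the minus strand of GRCm38.p6 in RefSeq, are shown with their shared runs of at least 12 bases in capitals, since the signals of these neighbours parted on 2 of the Trif arrays.
Naip2 start: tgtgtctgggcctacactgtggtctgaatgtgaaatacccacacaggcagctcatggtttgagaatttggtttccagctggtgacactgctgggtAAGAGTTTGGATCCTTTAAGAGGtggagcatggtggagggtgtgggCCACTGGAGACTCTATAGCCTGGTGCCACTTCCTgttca
Naip5 start: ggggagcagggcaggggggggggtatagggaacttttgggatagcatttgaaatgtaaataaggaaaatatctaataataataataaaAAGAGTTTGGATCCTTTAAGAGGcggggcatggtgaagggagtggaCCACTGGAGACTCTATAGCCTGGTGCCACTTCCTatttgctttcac
The 2 windows share runs of 23 and 34 bases, 57 of 180 bases in all, close to the start, and differ further upstream. The longer Naip5 window also held a kappa-B match at base -218 and a TATAAA match on the opposite strand at base -236, and the Naip2 window held none of the 5 motifs.

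Nlrc4, which the NAIP proteins activate, rose modestly in Trif mutants and fell in MyD88 knockouts. The wild type arrays read 1.14, 1.32, 1.48 and 1.30 (probe at chr17:74826172-74826231, minus strand), Trif mutants 1.87, 1.94, 2.01 and 1.30, and MyD88 knockouts 0.72, 0.65, 0.88 and 0.68. Tlr3 knockouts had 1.61, 1.61, 1.66 and 1.44 and Tlr4 knockouts 1.38, 1.30, 1.54 and 1.56. Trif replicate 4 lay inside the wild type range and the other 3 above it, whereas all MyD88 arrays lay below wild type.

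The Trif change of Nlrc4 was 0.47 ± 0.13 (adjusted p = 0.00732), and it was 0.00 on the slide of replicate 4. It missed the threshold with Xist as a covariate (0.22, adjusted p = 0.26), after normexp (0.34, adjusted p = 0.13), with median scaling (0.35, adjusted p = 0.068) and with the 2 genotypes alone (adjusted p = 0.063). The MyD88 fall was 0.58 on the log2 scale (-0.58 ± 0.13, adjusted p = 0.00211) and kept its call under every alternative run and with any 1 array left out, with -0.99 under median scaling and -0.91 with Xist as a covariate. MyD88 knockouts were also below Trif mutants (adjusted p = 4.32e-06), Tlr3 (adjusted p = 4.6e-05) and Tlr4 knockouts (adjusted p = 0.00062). The difference between Trif mutants and Tlr4 knockouts (0.34 ± 0.13, adjusted p = 0.0483) was lost in 8 of 11 alternative runs. These included the slide as a block (adjusted p = 0.0562) and Xist as a covariate (0.06, adjusted p = 0.814). It was also lost in 6 of 8 runs with 1 array left out.

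Nlrp6, a sensor expressed in the gut lining, was higher in Trif mutants and Tlr4 knockouts, with calls that depended on scaling and probe. On its brighter probe (chr7:148114024-148114083) wild type read 4.73, 4.80, 4.78 and 4.76, Trif mutants 5.25, 5.12, 5.12 and 5.12 and Tlr4 knockouts 5.30, 5.13, 4.98 and 4.96. Tlr3 knockouts had 4.92, 4.94, 4.85 and 5.10 and MyD88 knockouts 5.11, 4.79, 4.81 and 4.80. The Trif, Tlr3 and Tlr4 groups lay above wild type and the MyD88 group overlapped it.

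Nlrp6 was higher by 0.38 ± 0.09 in Trif mutants (adjusted p = 0.00341) and by 0.32 ± 0.09 in Tlr4 knockouts (adjusted p = 0.0317). The Trif call was lost after quantile normalization (0.12, adjusted p = 0.37), median scaling (0.25, adjusted p = 0.077) and normexp (0.16, adjusted p = 0.4), and on the second probe, which begins shortly after the first (0.21 ± 0.11, adjusted p = 0.151). In Tlr4 knockouts the second probe gave 0.51 ± 0.11 (adjusted p = 0.0053). The call on the first probe was lost under the same 3 settings, without the filter on dim probes (adjusted p = 0.0564), with only the 2 genotypes fitted (adjusted p = 0.0802) and without wild type replicate 1, 2, 3 or 4 or Tlr4 replicate 1 or 2 (0.25 to 0.33, adjusted p 0.0567 to 0.123). In MyD88 knockouts (0.11 ± 0.09, adjusted p = 0.361) median scaling turned the sign (-0.30, adjusted p = 0.031).

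Casp1, whose product matures IL-18 and cuts gasdermin D, was slightly higher in all 4 mutants, although median scaling turned the sign in MyD88 knockouts. It read 4.82, 4.87, 4.96 and 5.02 in wild type, 5.27, 5.27, 5.12 and 5.21 in Trif mutants and 5.27, 5.21, 5.28 and 5.06 in Tlr3 knockouts. Tlr4 knockouts had 5.16, 5.18, 5.35 and 5.20 and MyD88 knockouts 5.12, 5.15, 5.08 and 5.17. No array of any mutant fell within the wild type range, and the mutants did not differ among themselves in any of the 6 comparisons (adjusted p 0.335 to 0.959).

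The changes of Casp1 were 0.30, 0.29, 0.30 and 0.21 (each ± 0.08) in Trif, Tlr3, Tlr4 and MyD88 mutants, with adjusted p of 0.00522, 0.00872, 0.0148 and 0.0342. The median changes of all features were 0.19, 0.22, 0.01 and 0.31, so the MyD88 change of Casp1 was below that of the median feature. These 4 comparisons share the wild type arrays. All 4 were lost with median scaling (0.17, 0.05, 0.16 and -0.20) and with normexp (0.05, 0.27, 0.28 and 0.18), and after quantile normalization the Trif and Tlr3 values were 0.02 and 0.04. With the 2 genotypes fitted alone the Tlr4 (adjusted p = 0.0706) and MyD88 calls (adjusted p = 0.0889) were lost, with the replicate number as a block, which pairs no slide here, the MyD88 call (adjusted p = 0.0519), and with Xist as a covariate the Trif (0.26, adjusted p = 0.0641) and MyD88 calls (0.16, adjusted p = 0.275). The Tlr4 call was also lost without Tlr4 replicate 3 (0.26, adjusted p = 0.0562), and the MyD88 call without wild type replicate 1 or 2 or MyD88 replicate 1, 2 or 4 (0.18 to 0.22, adjusted p 0.0576 to 0.094).

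Casp4 lies next to Casp1 on chromosome 9 and changed in opposite directions in Trif mutants and Tlr3 knockouts. The wild type signals were 3.72, 3.80, 4.05 and 3.76 (probe at chr9:5336645-5336704), those of Trif mutants 3.23, 3.23, 3.61 and 2.64, and those of Tlr3 knockouts 4.24, 4.72, 4.62 and 4.08. Tlr4 knockouts had 4.03, 3.85, 4.13 and 3.75 and MyD88 knockouts 3.97, 3.92, 3.51 and 3.84. All Trif arrays lay below, and all Tlr3 arrays above, the wild type range.

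Casp4 fell by 0.65 ± 0.18 on the log2 scale in Trif mutants (adjusted p = 0.0079), with within-slide values of -1.12 to -0.44 and the lowest on the slide of replicate 4. With Xist as a covariate it was -0.98. It rose by 0.58 ± 0.18 in Tlr3 knockouts (adjusted p = 0.0186), and the Trif level was 2.35-fold below the Tlr3 level (adjusted p = 0.00022). The Tlr3 rise was lost with normexp (adjusted p = 0.14), quantile normalization (0.41, adjusted p = 0.066) and median scaling (0.35, adjusted p = 0.17), and without wild type replicate 1 or Tlr3 replicate 2 or 3 (0.48 to 0.55, adjusted p 0.0524 to 0.0695). In Tlr4 and MyD88 knockouts Casp4 changed by 0.11 ± 0.18 (adjusted p = 0.796) and -0.02 ± 0.18 (adjusted p = 0.941). With the slide as a block the Tlr3 level also exceeded that of Tlr4 knockouts (0.47, adjusted p = 0.0197).

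The start windows of both caspase genes are given because the neighbours did not move together (Casp1 chr9:5298337-5298516, first Casp4 start chr9:5308669-5308848, plus strand, GRCm38.p6, RefSeq), and the capitals mark a stretch that matches kappa-B on both strands.
Casp1 start: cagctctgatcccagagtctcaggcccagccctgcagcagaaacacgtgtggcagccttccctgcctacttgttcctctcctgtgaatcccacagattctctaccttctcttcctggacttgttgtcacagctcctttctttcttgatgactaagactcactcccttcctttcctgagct
Casp4 start: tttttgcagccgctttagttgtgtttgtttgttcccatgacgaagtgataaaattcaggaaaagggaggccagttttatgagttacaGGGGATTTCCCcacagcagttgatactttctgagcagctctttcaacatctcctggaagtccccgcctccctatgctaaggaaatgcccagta
The match begins at base -93 from the first Casp4 start, and a second annotated start lies a few bases downstream. None of the 5 motifs was found in the Casp1 window. Such a match describes the letters and shows no binding.

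Il18, the cytokine that caspase-1 activates and that epithelial cells store as a precursor, fell in MyD88 knockouts. Wild type arrays read 4.26, 3.98, 4.46 and 4.37, and MyD88 arrays 2.45, 2.17, 3.04 and 2.67. Trif mutants had 3.67, 3.98, 3.51 and 4.25, Tlr3 knockouts 4.36, 3.61, 4.44 and 4.13 and Tlr4 knockouts 3.87, 3.80, 3.45 and 3.91. All MyD88 arrays were below every other array of the study, and the Tlr4 arrays were below all wild type arrays.

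The probe of Il18 was spotted 10 times on each array and covers 2129 bases of the genome (chr9:50387470-50389598 of mm9) with 60 bases, so it bridges an intron, and it is shown as the sequence behind the strongest change of this cytokine.
Il18 probe: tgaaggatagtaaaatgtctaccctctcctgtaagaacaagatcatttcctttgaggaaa
Il18 fell by 1.68 ± 0.21 on the log2 scale in MyD88 knockouts, 3.21-fold (adjusted p = 2.57e-05). With Xist as a covariate, which cannot take sex apart from this genotype, the change was -1.62 (adjusted p = 0.00191). The MyD88 level was also below those of Trif mutants (2.41-fold, adjusted p = 6.31e-05), Tlr3 (2.94-fold, adjusted p = 1.44e-05) and Tlr4 knockouts (2.25-fold, adjusted p = 0.000515). The call against wild type held under each alternative run and with any 1 array left out. In Trif mutants (-0.41 ± 0.21, adjusted p = 0.125), Tlr3 (-0.13 ± 0.21, adjusted p = 0.647) and Tlr4 knockouts (-0.51 ± 0.21, adjusted p = 0.139) Il18 did not pass, except in Trif mutants after normexp (-0.63, adjusted p = 0.027) and quantile normalization (-0.63, adjusted p = 0.03).

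**Figure D4:**
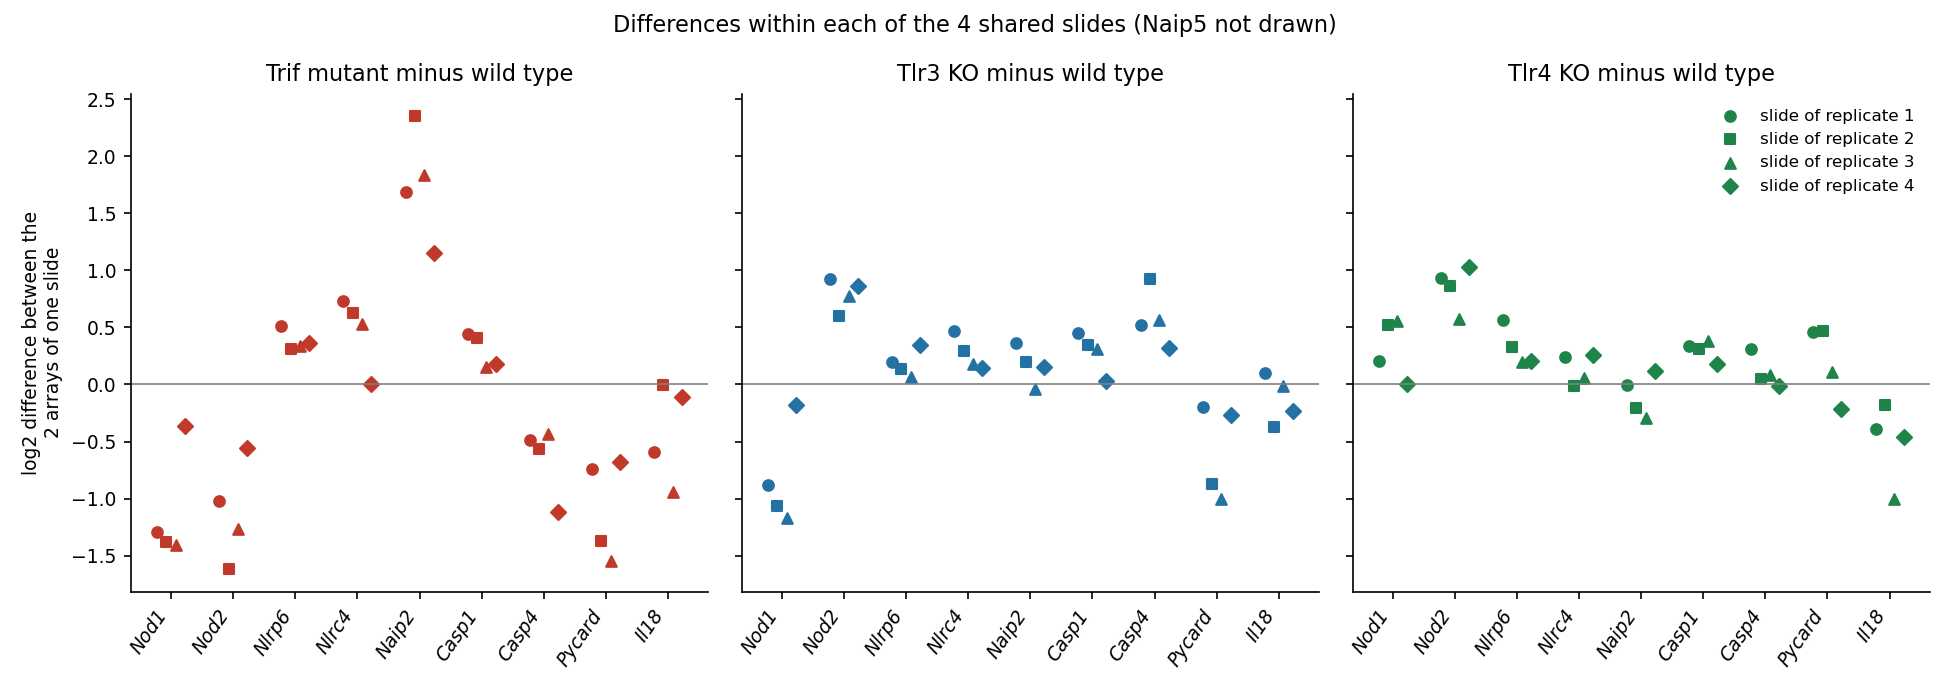
Log2 difference between a mutant array and the wild type array of the same slide (vertical axis), for 9 genes (horizontal axis) and the 3 genotypes that share slides with wild type. Each symbol is 1 of the 4 slides. Naip5 is left out because its Trif differences run from -10.2 to 0.98. Nod1, Nod2, Casp4, Pycard and Il18 (-0.94 to -0.003) are below 0 on all 4 slides in Trif mutants. Il18 is also below 0 on all 4 slides in Tlr4 knockouts (-1.01 to -0.18).

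Direct differences between mutants do not use the wild type means, but their standard errors pool all 20 arrays, wild type included. In Trif mutants, against Tlr3 knockouts 4 of the 10 genes differed (20.2% of all features), against Tlr4 knockouts 7 (41.2%) and against MyD88 knockouts 9 (64.1%). Tlr3 and Tlr4 knockouts differed in 2 genes (30.9%), Nod1 (-1.15 ± 0.22, adjusted p = 0.0028) and Pycard (-0.79 ± 0.20, adjusted p = 0.00999). Tlr3 and MyD88 knockouts differed in 6 genes (58.8%) and Tlr4 and MyD88 knockouts in 3 (48.0%), namely Nod2, Nlrc4 and Il18. Of these, the Nod2 difference (-0.67, adjusted p = 0.0223) was lost with normexp (-0.39), quantile normalization (-0.51), median scaling (-0.40), the 2 genotypes alone and Xist as a covariate (-0.80), and without MyD88 replicate 1 (-0.43) or Tlr4 replicate 3 (-0.63) or 4 (-0.61), with adjusted p of 0.0524 to 0.623. Trif mutants and Tlr3 knockouts, whose receptor and adaptor form one pathway, differed in Nod2, Naip2, Naip5 and Casp4 and not detectably in Nod1 or Pycard (-0.50 ± 0.20, adjusted p = 0.0907), which did pass on its second probe (-0.57 ± 0.19, adjusted p = 0.041), after normexp (-0.71, adjusted p = 0.0317) and without Trif replicate 4 (-0.62, adjusted p = 0.0476). Naip5 is counted in each comparison of Trif mutants with another mutant. Each of these Naip5 calls was lost without Trif replicate 2 or without replicate 3 (adjusted p 0.0745 to 0.097). Against Tlr3 knockouts the Naip5 call was lost in 6 of 8 runs with 1 array left out. It was also lost with the 2 genotypes alone (adjusted p = 0.173) and with Xist as a covariate (adjusted p = 0.144). On the second Nlrp6 probe the Trif level was below that of Tlr4 knockouts (-0.30 ± 0.11, adjusted p = 0.0447).

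Among partners of NOD signalling, Slc15a1 and Birc3 rose in Trif mutants, Tnfaip3 and Nfkbia in Tlr3 knockouts, and Xiap and Tab2 fell in MyD88 knockouts. Of 19 genes tested from a list of 21, 7 were higher and 0 lower in Trif mutants, 6 and 0 in Tlr3 knockouts, 3 and 0 in Tlr4 knockouts and 3 and 5 in MyD88 knockouts, with medians of 0.14, 0.13, 0.08 and -0.13. The shares of all features called higher and lower were 28.6% and 15.8% in Trif mutants, 24.5% and 13.8% in Tlr3, 9.27% and 3.11% in Tlr4 and 37.1% and 12.3% in MyD88 knockouts, with medians of 0.19, 0.22, 0.01 and 0.31, and the higher counts in Trif mutants and Tlr3 knockouts are near these shares. Slc15a1, a peptide transporter of the brush border that carries muramyl dipeptide, rose in Trif mutants (0.98 ± 0.26, adjusted p = 0.0054) and Tlr3 knockouts (0.82 ± 0.26, adjusted p = 0.0187). Tnfaip3, which encodes the NF-kappaB inhibitor A20, rose in Tlr3 knockouts (1.00 ± 0.19, adjusted p = 0.000624), and so did Nfkbia, another inhibitor (0.73 ± 0.12, adjusted p = 0.000225). Nfkbia rose in Tlr4 knockouts too (0.41 ± 0.12, adjusted p = 0.031). Birc3, a ubiquitin ligase of this pathway, rose in Trif mutants (0.85 ± 0.11, adjusted p = 2.45e-05). In Tlr3 knockouts it read 2.58, 2.67, 2.79 and 2.50, also above all wild type arrays (1.91, 2.15, 2.04 and 2.01). In MyD88 knockouts Xiap, a ubiquitin ligase that acts with RIPK2, fell from -0.35, 0.47, -0.01 and 0.41 in wild type to -1.47, -1.45, -1.25 and -1.28 (-1.49 ± 0.18, adjusted p = 2.25e-05), and Tab2, an adaptor of the kinase TAK1, fell by 0.81 ± 0.12 (adjusted p = 7.22e-05).

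Among 12 other NOD-like receptors tested, 2 were higher and 1 lower in Trif mutants, 3 and 0 in Tlr3, 2 and 0 in Tlr4 and 4 and 0 in MyD88 knockouts, with medians of 0.15, 0.53, 0.26 and 0.33. Of all features 28.6%, 24.5%, 9.27% and 37.1% were higher and 15.8%, 13.8%, 3.11% and 12.3% lower, so the counts in Trif, Tlr3 and MyD88 mutants do not stand above the background. Nlrp9b, a receptor known from intestinal epithelium, rose in Trif mutants (1.02 ± 0.24, adjusted p = 0.00224), Tlr3 (1.54 ± 0.24, adjusted p = 0.00014) and Tlr4 knockouts (1.47 ± 0.24, adjusted p = 0.000356). Its probe was dim, with a wild type mean of -4.79, and the Trif group overlapped wild type. Ciita, the regulator of MHC class II genes, rose in Tlr4 knockouts from -1.60, -1.62, -1.92 and -2.21 in wild type to 0.52, 0.31, 0.18 and -0.64 (1.93 ± 0.44, adjusted p = 0.00651). Nlrp3, known mainly from myeloid cells, rose in MyD88 knockouts (1.30 ± 0.31, adjusted p = 0.00331), with 1 wild type spot of Nlrp3 left out as a scanner outlier. In these knockouts the macrophage list had 7 of 14 genes higher and 1 lower, where 37.1% and 12.3% of all features were. The leukocyte list had 0 of 8 genes higher and 1 lower. The part of macrophages in the change of Nlrp3 was not tested.

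Among other inflammasome sensors, regulators and effectors, the gasdermin C genes fell in Trif mutants and rose in Tlr4 knockouts, and Gsdmc2 (1.19 ± 0.28, adjusted p = 0.00228) and Gsdmc (0.98 ± 0.28, adjusted p = 0.00796) also rose in MyD88 knockouts. Of 21 genes tested, 3 were higher and 7 lower in Trif mutants, 6 and 2 in Tlr3, 4 and 1 in Tlr4 and 6 and 3 in MyD88 knockouts, with medians of -0.05, 0.32, 0.02 and 0.14, where 28.6%, 24.5%, 9.27% and 37.1% of all features were higher and 15.8%, 13.8%, 3.11% and 12.3% lower. Gsdmc2, of the gasdermin C family of pore-forming proteins, read 0.81, 0.92, 1.24 and 0.43 in wild type, -1.61, -1.13, -1.81 and -2.55 in Trif mutants and 2.58, 2.82, 2.60 and 1.94 in Tlr4 knockouts. These groups did not overlap, and the changes were -2.62 ± 0.28 (adjusted p = 3.96e-06) and 1.64 ± 0.28 (adjusted p = 0.000523). Gsdmc and Gsdmc3, its close relatives, fell in Trif mutants (-2.21 and -1.81) and rose in Tlr4 knockouts (1.41 and 1.36) too, and whether their probes share transcripts was not tested. In MyD88 knockouts Gsdmc3 read 2.45, 3.13, 2.46 and 2.47, above all wild type arrays (1.73, 1.70, 2.26 and 1.46).

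Gsdmd, the substrate of caspase-1 and caspase-11, rose in Tlr3 knockouts (0.61 ± 0.17, adjusted p = 0.00826) and fell in MyD88 knockouts (-0.65 ± 0.17, adjusted p = 0.00458), where Casp8 also fell (-0.70 ± 0.19, adjusted p = 0.00665). Gsdme rose in Trif mutants (1.33 ± 0.33, adjusted p = 0.00386) and Tlr3 knockouts (1.26 ± 0.33, adjusted p = 0.007), with groups that overlapped wild type. The probe of Aim2, the sensor of cytosolic DNA, was well above background on 0 of 20 arrays.

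Of 14 genes tested from the interleukin-1 family and its receptors, 3 were higher and 3 lower in Trif mutants, 2 and 1 in Tlr3, 1 and 1 in Tlr4 and 4 and 4 in MyD88 knockouts, with medians of 0.15, -0.05, -0.08 and 0.12, beside the same shares of all features (28.6%, 24.5%, 9.27% and 37.1% higher, 15.8%, 13.8%, 3.11% and 12.3% lower). Il18bp, which encodes the soluble inhibitor of IL-18, read 0.34, 0.16, 0.38 and 1.65 in wild type, -1.94, -1.65, -1.67 and -1.56 in Trif mutants and -1.53, -1.42, -1.18 and -1.42 in MyD88 knockouts. It fell by 2.34 ± 0.30 (adjusted p = 1.96e-05) and by 2.02 ± 0.30 (adjusted p = 0.000101), with both mutant groups below all wild type arrays. Il33, an alarmin of the same family, fell in MyD88 (-1.64 ± 0.20, adjusted p = 2.28e-05) and Tlr4 knockouts (-0.92 ± 0.20, adjusted p = 0.00498). In MyD88 knockouts the cytokine Il18, its inhibitor Il18bp and Il33 were thus all lower, while Il18r1, which encodes a receptor chain, was higher (1.33 ± 0.28, adjusted p = 0.00121), from a probe well above background on 2 of 4 wild type arrays.

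**Figure D5:**
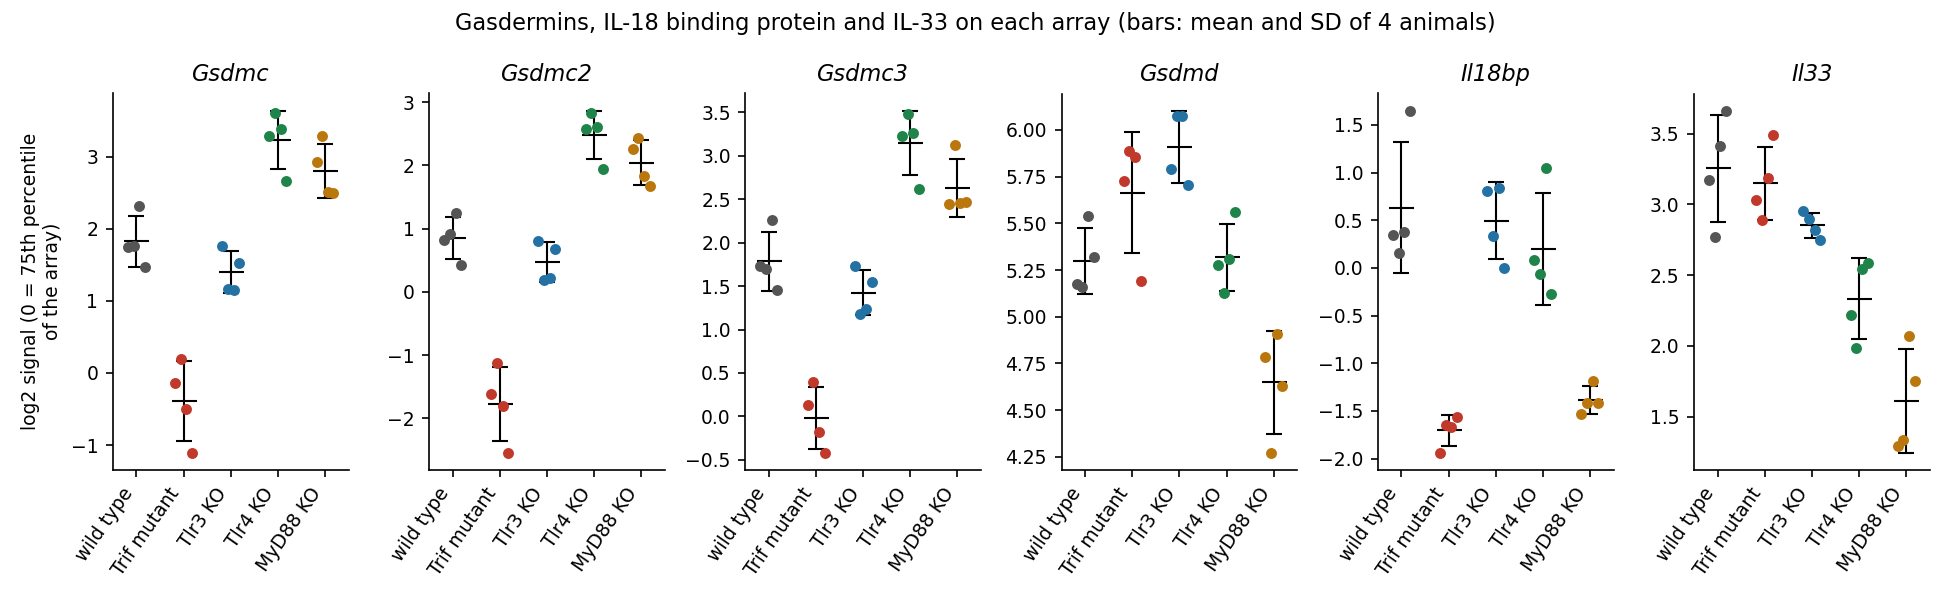
Log2 signal of 6 further pathway genes on each array (vertical axis, relative to the 75th percentile of the array, own range per gene) by genotype (horizontal axis), with mean and SD of 4 animals. The 3 gasdermin C genes are lowest in Trif mutants and highest in Tlr4 knockouts, and Il18bp is low in both Trif mutants and MyD88 knockouts.

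Over the 20 arrays, the features whose signal ran most like each gene were ranked by Pearson correlation among 16726 features, which is a description, since arrays of one genotype share much of their pattern. For Pycard these were Thyn1 (0.987), Plch2 (0.984) and the mitosis gene Kif23 (0.982), and for Nod1 they were Epb41l2 (0.981), Zfp704 (0.977) and Paip2b (0.975). Nod2 ran most like Zc3h12a (0.940), A530020G20Rik (0.937) and Gpr55 (0.926), and Il18 most like Ltb4r2 (0.934), Hip1r (0.921) and Papss2 (0.908). Casp4 ran most like Tmsb10 (0.906), Majin (0.883) and the antibacterial lectin gene Reg3g (0.864), and Nlrc4 most like Ldb3 (0.975), Ist1 (0.965) and Wipf2 (0.964). The closest to Naip2 were Ppp3ca (0.973), Ep300 (0.943) and Lin52 (0.942), and those of Naip5, whose range is set by 2 low arrays, were Dmbt1 (0.791), Muc4 (0.787) and Zdhhc2 (0.779). Nlrp6 (Ppp2r3d 0.880, Cdkn2aip 0.836, Hyi 0.787) and Casp1 (Paxbp1 0.875, Pnisr 0.858, Pibf1 0.842) had looser likenesses.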

How the data were processed

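RNA of 20 animals, 4 per genotype, was labelled with Cy3 and hybridised to one-colour Agilent arrays, and Agilent Feature Extraction 10.7.3.1 read the spots, per the file headers. The deposited files hold the authors' spot intensity values (background-subtracted processed signal, with mean signal and local background). The authors' value table is that intensity times a factor per array (1.58 to 2.27), with a floor of 15, on 100% of values.

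Control and outlier spots were left out, spots of a probe averaged, and log2 signals set relative to the 75th percentile of each array. A probe was kept if 4 or more of the 20 arrays detected it above background (31576 of 41174 probes), and the brightest probe stood for each symbol. Names came from the files and, through accessions, from RefSeq. Genotypes were compared with limma 3.58.1 in R 4.3.3: group means over 20 arrays, moderated variances, Benjamini-Hochberg adjustment over 21600 features and a threshold of 0.05, so each adjusted p is from limma. The scripts were tested on simulated data.

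The 10 genes, the pathway and marker lists and the tests were chosen with earlier results of these data known. Named pathway genes were drawn from up to 3 called genes with the largest rise and 3 with the largest fall per list and comparison. Per the file headers, same-numbered arrays of 4 genotypes shared a slide, and deviations from the group mean of same-numbered arrays correlated with wild type at 0.17 to 0.35 in Tlr4, 0.10 to 0.32 in Trif and -0.07 to 0.31 in Tlr3 mutants. MyD88 arrays shared no slide with wild type (-0.23 to -0.02). Alternatives changed background correction, scaling, filter, probe, fit, the slide block and a covariate for Xist, and left out each array. Only the 10 genes were followed through these runs, so the named pathway genes were not checked in this way. Array number limits the precision.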

Additional observations from a re-analysis of the deposited data

Results flagged for a closer look

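Over 50 groups of 4 arrays, 1 per gene and genotype, Nlrp6 had a value set apart from the other 3 on 2 occasions, where chance gives about 1 in 20 groups. In Trif mutants replicate 1 was the highest at 5.25, and the nearest array read 5.12. In MyD88 knockouts replicate 1 was the highest at 5.11, and the nearest array read 4.81.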

How the results depend on the processing

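Over 1920 recomputed values of single genes, 1767 stayed on their side of the threshold (46 of them with the other sign and no call), 116 lost a call, 31 gained one and 6 changed sign with a call involved. The sign changed for Nod2 in Trif mutants after normexp (0.42), for Nlrp6 and Casp1 in MyD88 knockouts with median scaling (-0.30 and -0.20), and for Nlrp6 between Trif mutants and Tlr4 knockouts on its second probe (-0.30) and between Trif mutants and MyD88 knockouts on the second probe (-0.0067) and after quantile normalization (-0.014). The median change of all features in Trif mutants was 0.51 after normexp, above the 0.42 of Nod2. The number of the 10 genes called in Tlr3 knockouts went from 5 to 2 (normexp), 2 (quantile) and 3 (median scaling). In Tlr4 knockouts it went from 3 to 0 (normexp, with limma, where 1 of 10 had an unadjusted p under 0.05), 1 (quantile), 1 (median scaling) and 1 (only the 2 genotypes), and in MyD88 knockouts from 4 to 2 (normexp). Between Tlr3 and Tlr4 knockouts it went from 2 to 4 (quantile). The cause was not tested. Normexp called 6719, 3255, 587 and 3218 of all features in Trif, Tlr3, Tlr4 and MyD88 mutants, against 9574, 8287, 2673 and 10677. Leaving out 1 array gave 8 to 9 genes in Trif mutants, 3 to 5 in Tlr3, 1 to 3 in Tlr4 and 3 to 5 in MyD88 knockouts, and between Trif and Tlr3 mutants 3 to 6. With the replicate number as a block, the counts against wild type were 8, 5 and 3 in Trif, Tlr3 and Tlr4 mutants, where it marks the slide, and 3 in MyD88 knockouts, whose arrays share no slide with wild type.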
